A study of Mus musculus with 10 samples.

Results

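The Hox genes were examined as a group across 5 region tables from CUT&Tag of mouse cardiac fibroblasts, an assay in which an antibody brings a transposase to its target and the DNA cut there is sequenced. Members were the listed regions that the deposited annotation assigned to a gene named Hoxa, Hoxb, Hoxc or Hoxd followed only by its paralog number, a rule that used no measured value. There were 59 of them among 74751 regions of lactylated histone H3 lysine 9 (H3K9lc), 13 of 72990 for JUN, 8 of 58633 for SMAD3 and 15 of 68767 for NFATC2 in the tables that set TGF-β-treated cells (TGF) beside HK1-depleted, TGF-β-treated cells (siHK1). A further 46 of 65853 H3K9lc regions came from the table that set untreated control cells (NC) beside TGF. All cells were primary fibroblasts from mouse heart, and the siHK1 cells received an siRNA against Hk1, the gene of a glycolytic hexokinase, before TGF-β. The labels give neither mouse strain, age, dose nor time, and do not say whether TGF and NC cells received a control siRNA. The NC library carries no antibody in its title and was read as H3K9lc from the table its label names. Each condition and antibody had 1 library, so values below are differences between libraries without replicate error, no test between conditions was possible, and fewer cells cannot be told apart from less signal per cell. The CUT&Tag libraries hold no RNA or protein values, so depletion of HK1 was not checked from them.

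Hox genes encode homeodomain transcription factors that set position along the body axis. In mammals they lie in 4 clusters, HoxA to HoxD, in which gene order follows the place of expression from head (low paralog numbers) to tail (high numbers), and they are held on or off by trithorax and Polycomb chromatin complexes. Adult fibroblasts keep a Hox pattern that reflects where in the body they came from. Lactylation of histone lysines is a mark derived from lactate and is usually found with active chromatin, while JUN, a subunit of AP-1, SMAD3, the signal transducer of TGF-β receptors, and NFATC2, a calcineurin-dependent factor, bind DNA directly.

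The libraries differed widely in depth. Reads over listed regions came to 2490853 in TGF and 1419023 in siHK1 with the H3K9lc antibody. JUN had 4215447 and 2271336, SMAD3 563562 and 399897, and NFATC2 575706 and 354599. There were 115572 in NC against 2313288 in TGF over the regions of the NC table. Ratios below are therefore taken after bringing both libraries of a table to equal totals. In the JUN table all 8 fibroblast marker genes had a region within 3 kb of a start site (111 reads per kb in TGF and 57.9 in siHK1), against 1 of 4 cardiomyocyte, 3 of 4 endothelial, 2 of 4 immune and 1 of 3 mural marker genes, which had 51.9, 71.9, 128 and 39.9 reads per kb in TGF. A JUN region within 3 kb of a start site was listed for 48.6% of all coding genes. In the H3K9lc table these counts were 1 of 8, 2 of 4, 0 of 4, 0 of 4 and 0 of 3. For SMAD3 they were 5 of 8, 2 of 4, 2 of 4, 2 of 4 and 1 of 3, with 10.6, 57.1, 9.17, 9.87 and 24.9 reads per kb in TGF. For NFATC2 they were 5 of 8, 4 of 4, 1 of 4, 1 of 4 and 0 of 3, with 13.3, 26.9, 15.0 and 14.0 where any were listed.

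H3K9lc regions lay densely in the Hox clusters, and factor regions did not. The 39 genes span chr6:52155590-52260880 (HoxA, 11 genes), chr11:96194316-96368256 (HoxB, 10 genes), chr15:102921103-103036852 (HoxC, 9 genes) and chr2:74668310-74765142 (HoxD, 9 genes) on GRCm38, 491.8 kb in all. Inside these spans were 58 H3K9lc regions of any gene symbol, 11.8 per 100 kb, against 2.83 per 100 kb over chromosomes 1 to 19 and X, a 4.17-fold density. HoxB stood highest at 14.4 per 100 kb (5.08-fold), and HoxA, HoxC and HoxD stood at 3.69, 3.66 and 3.65 times the chromosomes' density. The NC table gave 43 regions, 8.74 against 2.49 per 100 kb, though most of its peaks were called in the same TGF library.

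For the factors the densities were 2.24 per 100 kb for JUN (11 regions; 2.77 over the chromosomes), 2.03 for SMAD3 (10 regions; 2.22) and 3.05 for NFATC2 (15 regions; 2.61). HoxD, which patterns limbs and the trunk, held 10 H3K9lc regions and 0 regions of any factor. HoxA held 6 JUN regions, 5.7 per 100 kb, of which 3 lay at Hotairm1, a noncoding RNA gene at the anterior end of the cluster. Start sites are crowded in the clusters, with 75.8% of their bases within 3 kb of an annotated start against 15.2% of the chromosomes, so densities were also compared within that distance only. There H3K9lc stood at 12.1 per 100 kb in the clusters against 2.67 over the chromosomes, whereas JUN stood at 2.68 against 5.56, SMAD3 at 2.41 against 3.58 and NFATC2 at 2.15 against 3.88. Near start sites the ratio of densities was therefore 4.52 for H3K9lc and 0.482 for JUN, 0.674 for SMAD3 and 0.553 for NFATC2. Regions are not replicates and no test was made of these differences.

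**Figure D1:**
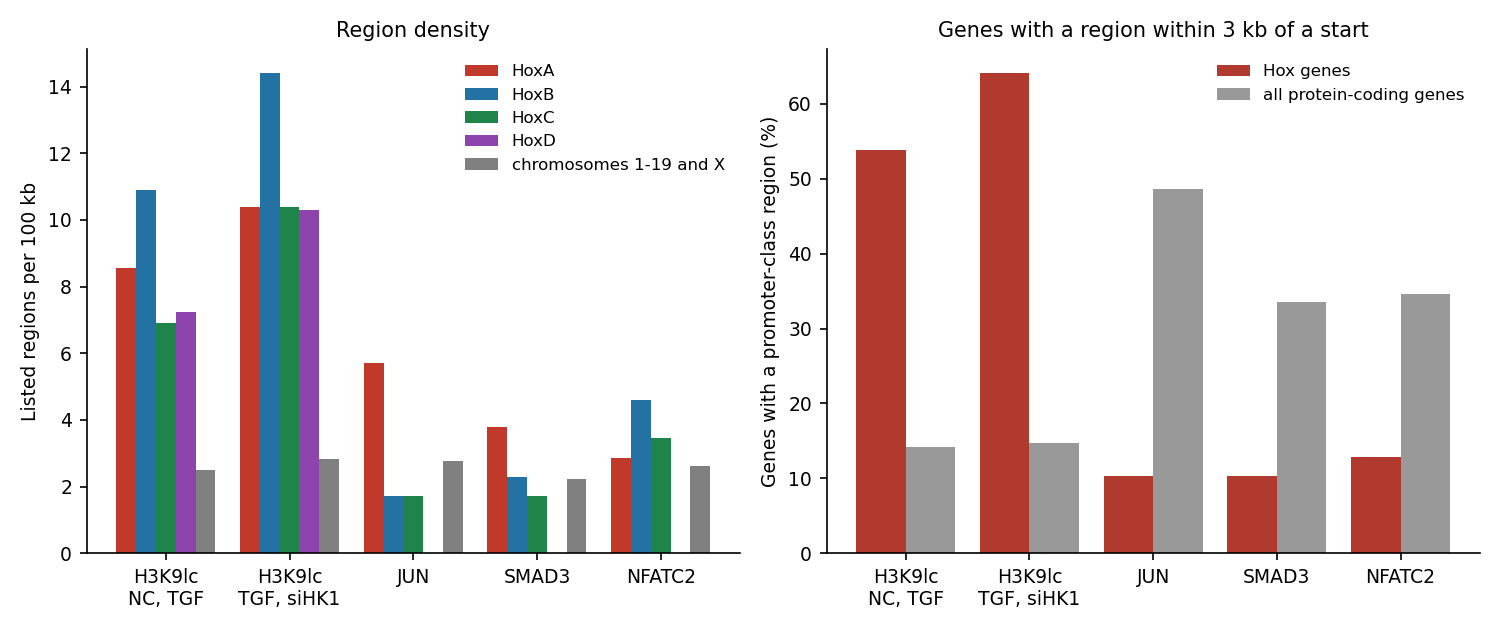
Left, listed regions per 100 kb of each Hox cluster and of chromosomes 1 to 19 and X, by table. Right, percent of genes with a listed region within 3 kb of a start site, for the 39 Hox genes and for all coding genes, by table; H3K9lc stands at 64.1% of Hox genes against 14.7% of coding genes, and JUN at 10.3% against 48.6%.

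The same contrast appeared gene by gene. A region classed as promoter (within 3 kb of a start site) was listed for 25 of 39 Hox genes with H3K9lc (64.1%, against 14.7% of coding genes), but for 4 with JUN (10.3% against 48.6%), 4 with SMAD3 (10.3% against 33.6%) and 5 with NFATC2 (12.8% against 34.6%). Of the 59 Hox H3K9lc regions, 35 were promoter regions (59.3%, against 6.78% of all regions), 20 were distal intergenic and 4 intronic. The exact 95% binomial interval of this share, 45.8% to 71.9%, counts neighbouring regions as independent, which they need not be. The share stands beside 75.8% of cluster bases and 15.2% of the chromosomes that lie within 3 kb of a start. Few of the 35 promoter regions sat on a start itself, since 4 held one (11.4%, against 17.3% of all promoter regions), and 15 lay upstream and 16 downstream. Over all 35, with those on a start counted as 0, the median distance was 792 bp, against 991 bp over all promoter regions. The Hox regions were richer in CpG than the rest, with a median observed-to-expected CpG ratio of 0.315 against 0.185 and a GC content of 51.7% against 48.5%.

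By cluster, H3K9lc regions were assigned to 9 of 10 HoxB genes, 8 of 9 HoxC genes, 5 of 9 HoxD genes and 4 of 11 HoxA genes. By position along the axis, 4 of 8 anterior genes (paralogs 1 to 3), 12 of 15 central genes (4 to 8) and 10 of 16 posterior genes (9 to 13) had 1 or more, whereas JUN had regions at 3 anterior, 0 central and 3 posterior genes. SMAD3 had regions at 3 of 8 anterior, 1 of 15 central and 2 of 16 posterior genes, and NFATC2 at 2, 2 and 3. Hoxb1 and Hoxb3, anterior genes of the hindbrain, and Hoxc13, needed for hair and nail formation, were listed in all 5 tables. A total of 12 genes were listed in none, among them Hoxa5, Hoxa9, Hoxa13, Hoxb5, Hoxc11 and Hoxd8. Another 16 had H3K9lc but no factor region. Regions inside the clusters can carry the name of a neighbour, as did 14 of the 58 H3K9lc regions there (Hoxaas3, Hoxa11os, Gm53, Mir196a-1, Hoxb5os, Mir10a, Mir615, Mir10b and Haglr), so a gene without an entry is not a gene without signal nearby.

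The highest H3K9lc level among Hox regions lay in the gap between Hoxb13 and Hoxb9, at chr11:96211058-96212709, intergenic and 16742 bp downstream of the start of Hoxb13, the most posterior HoxB gene. It held 202 reads in TGF and 130 in siHK1, a mean of 102 scaled reads per kb, higher than 97.0% of all H3K9lc regions. The next by reads was at Hoxc12, another posterior gene, at chr15:102938585-102939520, with 81 reads in TGF and 77 in siHK1 (90.6 per kb). It starts inside the last bases of Hoxc12 and runs past the annotated gene end, 1828 bp from the start site, although its class is promoter. The central 200 bp of both are shown, on the plus strand of GRCm38, because they carry the highest H3K9lc of the clusters. Capitals mark CG dinucleotides, of which the Hoxb13 window has 0 and the Hoxc12 window 1.
Hoxb13 chr11:96211784-96211983: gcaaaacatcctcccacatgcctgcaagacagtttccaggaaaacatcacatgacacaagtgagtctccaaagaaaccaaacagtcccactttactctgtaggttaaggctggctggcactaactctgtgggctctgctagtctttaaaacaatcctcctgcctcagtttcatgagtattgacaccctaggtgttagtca
Hoxc12 chr15:102938953-102939152: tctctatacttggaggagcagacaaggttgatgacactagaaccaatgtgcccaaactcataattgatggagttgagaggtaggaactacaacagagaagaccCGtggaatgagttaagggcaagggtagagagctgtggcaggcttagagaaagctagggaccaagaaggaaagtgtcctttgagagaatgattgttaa

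Both of these regions had peaks called in TGF and in siHK1, and the remaining 2 Hox regions with peaks in both libraries were at Hoxb13 and Hoxb7. Hoxb13 had 72 and 43 reads at chr11:96219171-96220078, and Hoxb7, a central gene, had 56 and 37 at chr11:96288139-96289153. The highest HoxD region was at the start of Hoxd12, a posterior limb gene (chr2:74675015-74676184; 65 and 38 reads), and the highest HoxA region at Hoxa10, a gene of the uterus and hindlimb (chr6:52233924-52234302; 21 and 10 reads). Reads per kb at these 4 were 63.7, 46.8, 44.2 and 39.9. Most Hox regions were low, with medians of 13 reads in TGF and 7 in siHK1, close to 16 and 8 over all regions. Per kb the median Hox H3K9lc level, 29.2 scaled reads, was close to the 29.9 of all regions, so the clusters held more regions rather than higher ones.

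**Figure D2:**
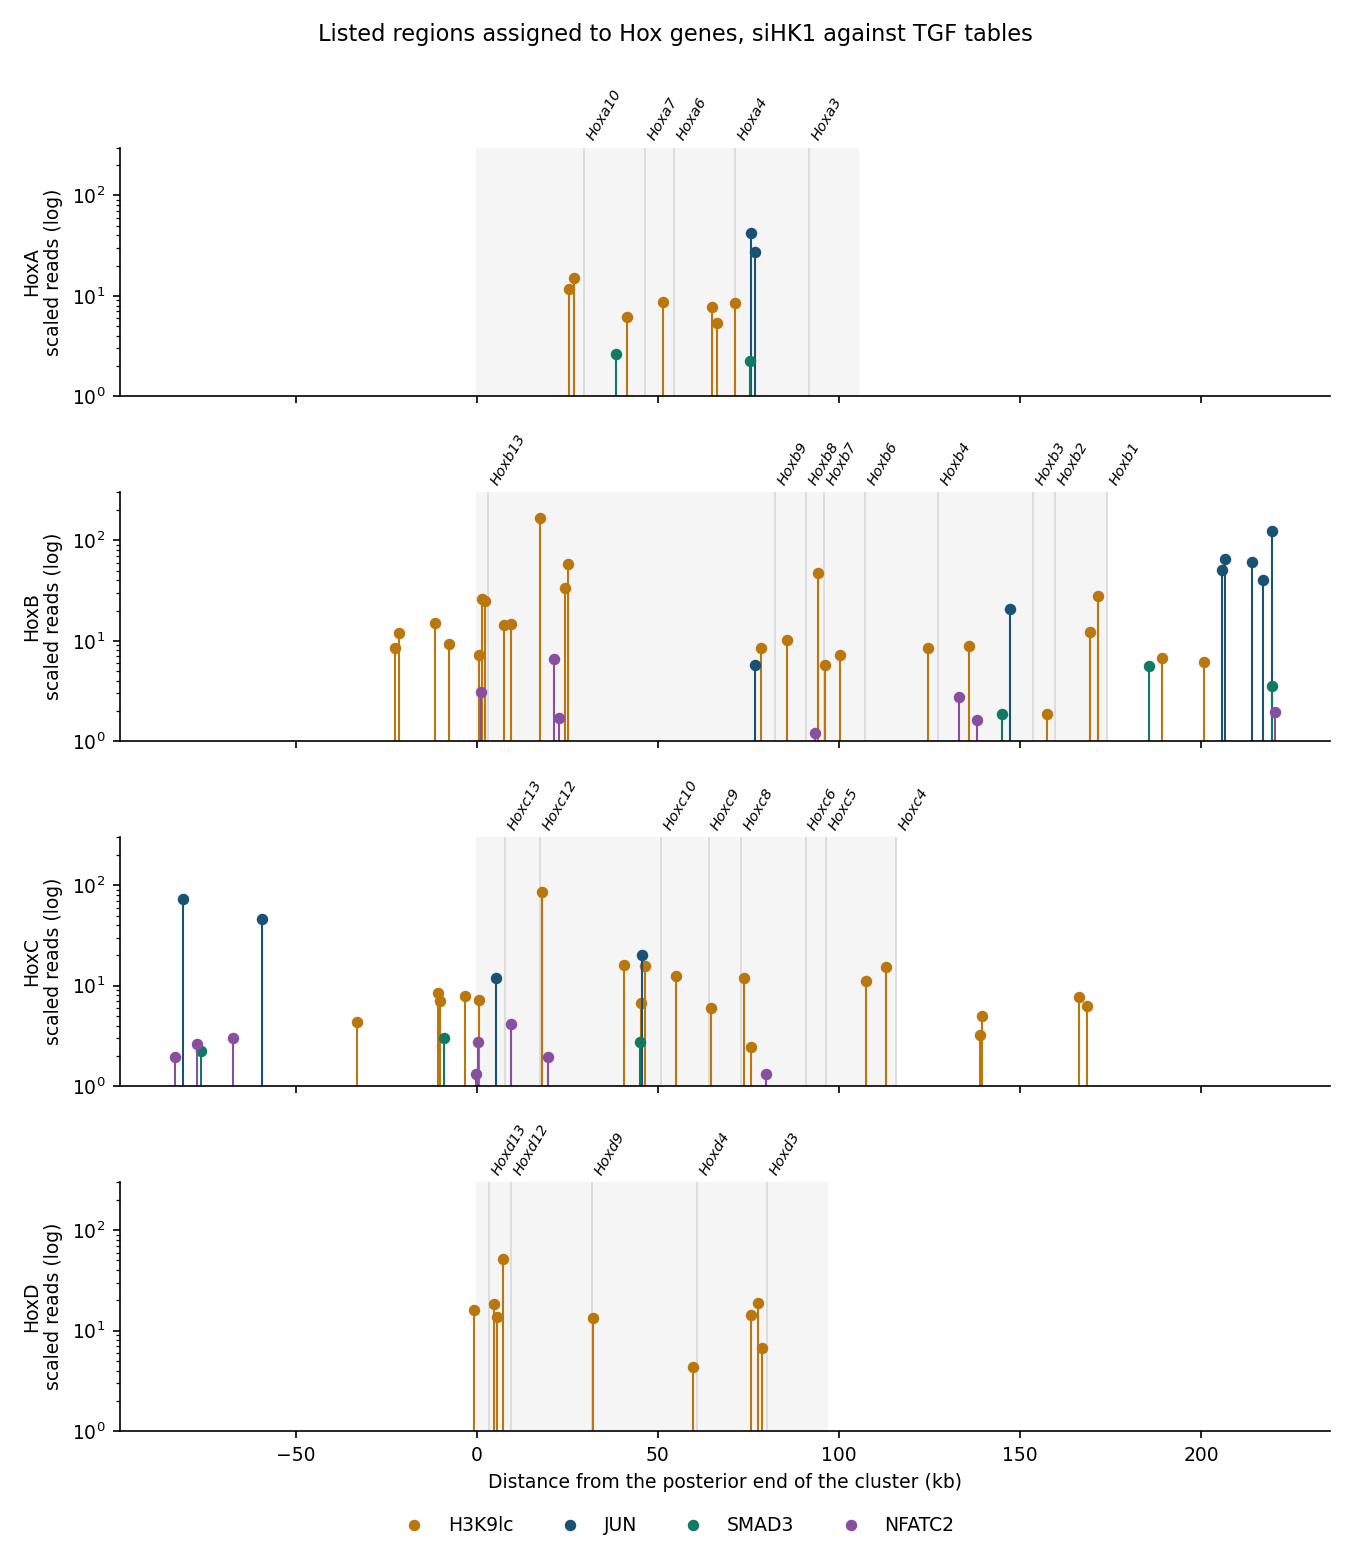
Each point is a listed region in or near a Hox cluster in the siHK1-against-TGF tables, placed by its distance in kb from the posterior end of the cluster, with the mean scaled reads of the 2 libraries on a log axis; the shaded span is the cluster, with the genes that have a listed region named at their annotated 3′ ends. H3K9lc regions run along all 4 clusters, with the highest in HoxB between Hoxb13 and Hoxb9, and HoxD holds 0 factor regions.

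The siHK1 libraries were set beside TGF to ask whether H3K9lc at Hox genes differed after HK1 depletion. A region was called when its scaled reads differed by at least 2-fold and the exact 95% binomial interval of the ratio did not reach equality, which covers counting error only. By this rule 2 Hox regions were lower in siHK1 (3.33% of all regions were) and 5 were higher (3.47% of all). With the deposited scaling in place of equal totals the split was 6 lower and 2 higher, while 5.24% and 1.99% of all regions were called, so the balance between directions depends on the scaling for Hox and for all regions alike. That scaling moved the median of all regions by -0.11 for H3K9lc, -0.17 for SMAD3 and 1.09 for the NC table (log2). Hox regions had a median log2 ratio (siHK1 over TGF) of 0.10, against -0.08 over all regions.

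The lower regions were in HoxA and HoxD. Hoxa4, a gene of the cervical vertebrae, had 16 reads in TGF and 2 in siHK1 at chr6:52195613-52196153, upstream of its start and inside the annotated gene bodies of Hoxa3 and Hoxaas3 (log2 ratio -1.91, 95% interval -5.35 to -0.10). Hoxd12 had 33 and 8 reads at chr2:74672834-74673275, upstream of its start (-1.17, -2.56 to -0.09), while its start region above, with 65 and 38 reads, had a ratio of 0.05. Just outside the rule were Hoxb6 (15 and 2 reads), Hoxd3 (26 and 6 reads, chr2:74743863-74744368), Hoxa6 (17 and 3 reads) and Hoxc4 (11 and 1 read, a distal region), whose intervals reached 0.01, 0.01, 0.10 and 0.13.

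The higher regions were small. At chr15:102910964-102911204, upstream of Hoxc13, there were 2 reads in TGF and 9 in siHK1 (log2 ratio 2.74, interval 0.71 to 6.23). Hoxd3, an anterior gene of the neck vertebrae, had 3 and 8 reads at chr2:74746886-74747114 (2.09, 0.17 to 4.78). Hoxb4, known for its effect on blood stem cells, had 4 and 10 at chr11:96318716-96319037 (2.03, 0.34 to 4.26). These 3 had 4 or fewer reads in TGF. Hoxb1 had 8 and 13 reads at chr11:96363412-96363753 (1.48, 0.13 to 2.99), and Hoxc4 had 11 and 16 at chr15:103033903-103034206 (1.33, 0.15 to 2.61). Just outside was a Hoxb13 promoter region, chr11:96195451-96195997, with 23 and 25 reads (0.93, 0.06 to 1.81). The highest regions did not reach the rule: the intergenic Hoxb13 region had a ratio of 0.18 (-0.15 to 0.50) and Hoxc12 0.74 (0.27 to 1.21), an interval above 0 at less than 2-fold.

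The library in which the peak had been called bears on these calls. All 5 higher regions had a peak in siHK1 only, and both lower regions a peak in TGF only, so each was listed partly through the library where it was high. Over the 37 Hox regions with a peak in TGF only the median log2 ratio was -0.48 (27 below 0), and over all such regions it was -0.49. Over the 18 with a peak in siHK1 only it was 0.86 (18 above 0), against 1.05 for all. The 4 Hox regions with peaks in both libraries, where this selection is least, had a median of 0.20, against 0.08 over all such regions, and 0 of these 4 were called. Called regions of this class made up 0.0361% (lower) and 0.15% (higher) of all listed regions, of which the class itself made up 20.8%. TGF-only peaks made up 62.7% of Hox regions and 54.7% of all.

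**Figure D3:**
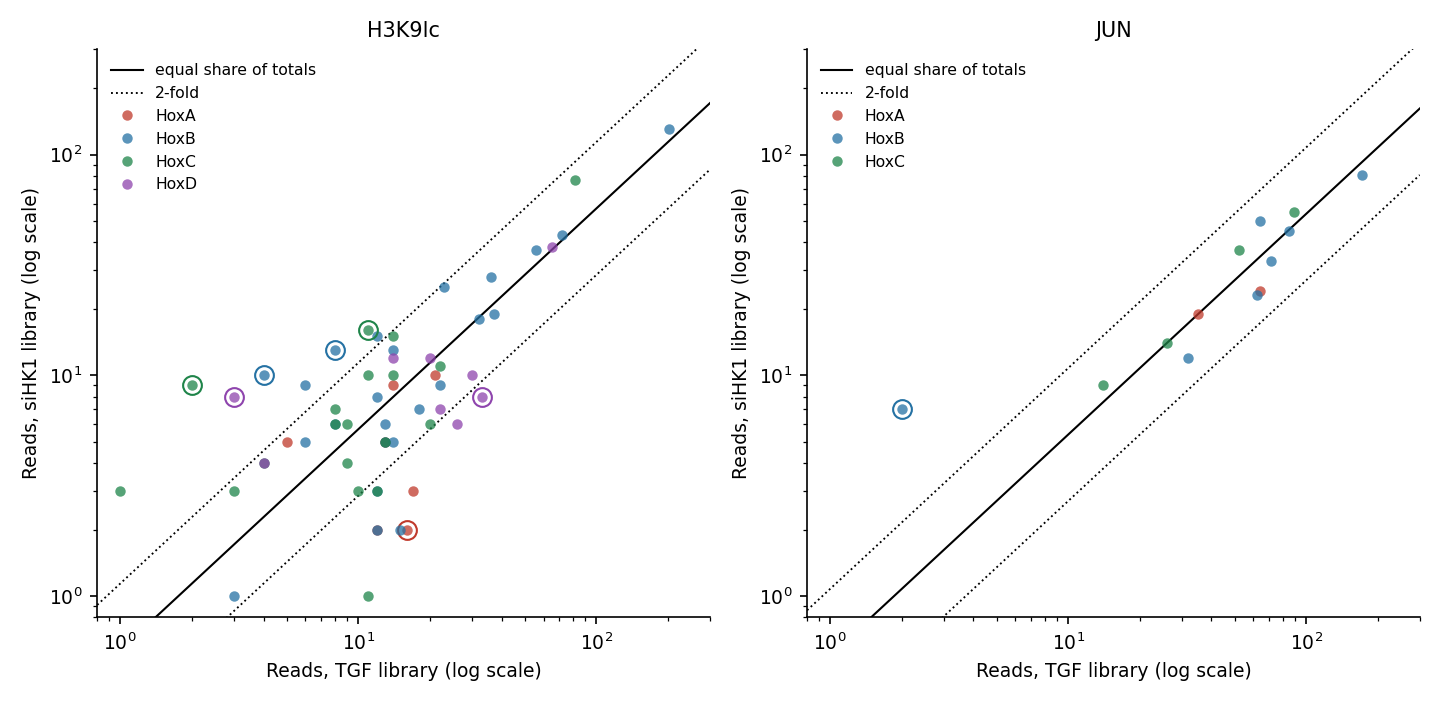
Reads in siHK1 against reads in TGF for each Hox region, H3K9lc on the left and JUN on the right, on log axes; the solid line marks an equal share of each library's total, dotted lines 2-fold, and rings the called regions. The called H3K9lc regions have 33 or fewer reads in TGF, while the region with 202 and 130 reads lies near the solid line.

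Summed by cluster, H3K9lc reads pointed in different directions. HoxA had 98 reads in TGF and 36 in siHK1 over 7 regions (log2 ratio -0.63, interval -1.23 to -0.07), but all 7 had a peak in TGF only, a class whose median over all regions was -0.49, and 5 of the 7 had a ratio below 0. HoxC had 263 and 199 over 19 regions (0.41, 0.14 to 0.68), of which 10 had a peak in TGF only, 8 in siHK1 only and 1 in both. Hoxc12 alone held 81 and 77 of these reads (0.74, 0.27 to 1.21). Peaks in siHK1 only made up 24.2% of all regions and had a median of 1.05. HoxB, with 650 and 419 reads over 24 regions (0.18, -0.0024 to 0.36), and HoxD, with 217 and 105 over 9 (-0.24, -0.59 to 0.11), had intervals that held 0. All 59 regions together had 1228 and 759 reads (0.12, -0.01 to 0.25). By axis, posterior genes had 824 and 542 reads (0.21, 0.05 to 0.37). Of these, Hoxb13 alone held 458 and 309 (0.24, 0.03 to 0.46) and Hoxc12 81 and 77 (0.74, 0.27 to 1.21). Of the 29 posterior regions, 18 had a peak in TGF only and 8 in siHK1 only. Central genes had 259 and 150 reads (0.02) and anterior genes 145 and 67 (-0.30, -0.74 to 0.13). The 4 cluster signs were the same when regions with a peak in both libraries were set to a median of 0. This takes the same 0.08 from every sum, so the unchanged signs add little.

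**Figure D4:**
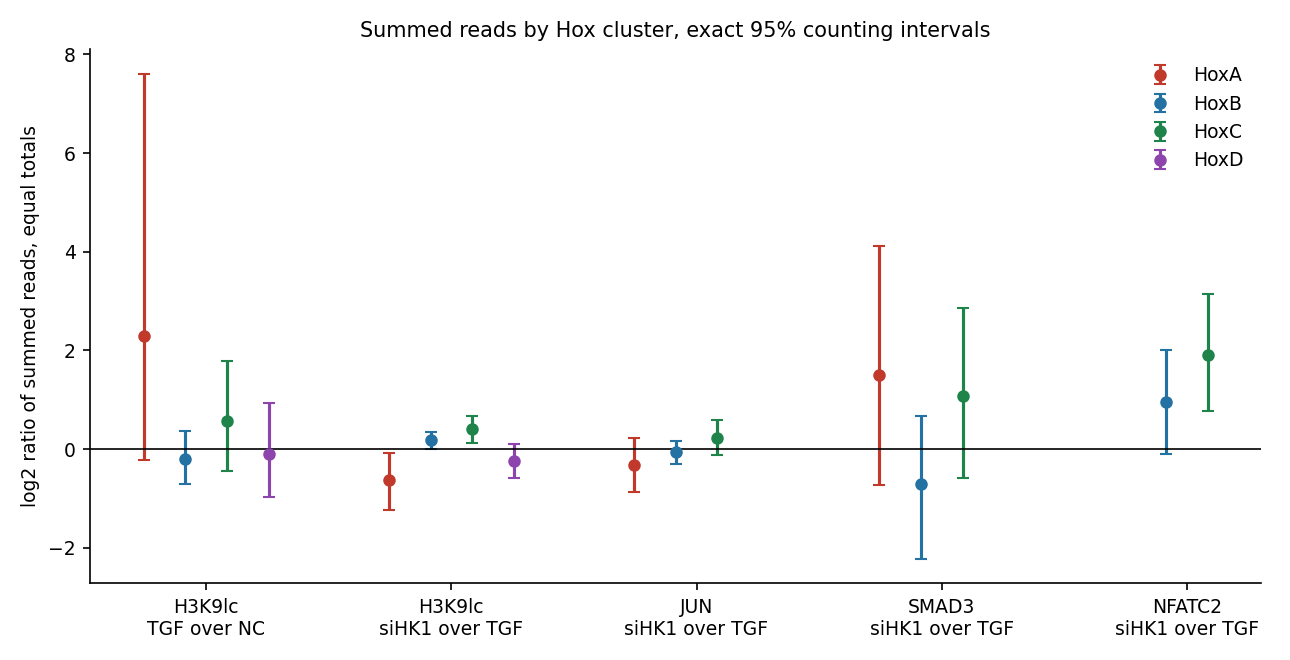
Log2 ratio of summed Hox reads (the second library over the first, at equal totals) by cluster for the 5 tables, with exact 95% intervals that cover counting error only. In H3K9lc, HoxA stands at -0.63 over 7 regions that all had a peak in TGF only and HoxC at 0.41 over regions of both kinds, and the SMAD3 and NFATC2 intervals are wide.

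JUN was listed at 6 Hox genes, and its strongest regions lay outside the clusters. A run of 5 regions lay 33656 to 47084 bp past the start of Hoxb1, beyond the anterior end of HoxB and nearer the start of Gm11531 than that of Hoxb1, and held 453 reads in TGF and 232 in siHK1. The highest was chr11:96413342-96414300, with 171 and 81 reads (log2 ratio -0.18, -0.59 to 0.20). Its neighbours held 71 and 33, 85 and 45, 64 and 50 (0.54, -0.03 to 1.09), and 62 and 23 reads (-0.52, -1.30 to 0.17), so the run as a whole showed no common direction. Distal regions upstream of Hoxc13 held 89 and 55 reads at chr15:102839584-102840268 and 52 and 37 at chr15:102861620-102862303. At Hoxa3, an anterior gene of the pharyngeal arches, 2 start regions held 64 and 24 reads (chr6:52184844-52185506; -0.50, -1.26 to 0.17) and 35 and 19 reads. Hoxc10, a posterior gene of the hindlimb level, had 26 and 14 reads over its start at chr15:102966368-102967047 (0.02), and Hoxb3 had 32 and 12 (-0.49, -1.62 to 0.47). Per kb the distal Hoxb1 and Hoxc13 regions, at 67.9 to 139 scaled reads, exceeded the 53.9 of the median JUN region, as did both Hoxa3 regions (63.0 and 60.1), and Hoxc10 (29.4) and Hoxb3 (24.6) lay below it.

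An AP-1 motif (TGANTCA on either strand) was found in the central 200 bp of 8 of 13 Hox JUN regions (61.5%), against 29.2% of all JUN regions and 3.39% of Hox H3K9lc regions. The central 200 bp of 2 JUN regions are shown on the plus strand of GRCm38, since they are the highest at a start site and the highest of all. The window at Hoxa3 has its AP-1 letters in capitals. The Hoxb1 window is from the highest JUN region, which overlaps a SMAD3 region, has 0 AP-1 matches and has 2 SMAD matches (CAGAC on either strand) in capitals. A match is a description of letters, not of binding.
Hoxa3 chr6:52185075-52185274: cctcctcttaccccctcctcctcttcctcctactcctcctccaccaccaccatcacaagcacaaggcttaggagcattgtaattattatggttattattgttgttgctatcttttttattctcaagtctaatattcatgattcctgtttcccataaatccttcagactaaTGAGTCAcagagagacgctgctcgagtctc
Hoxb1 chr11:96413721-96413920: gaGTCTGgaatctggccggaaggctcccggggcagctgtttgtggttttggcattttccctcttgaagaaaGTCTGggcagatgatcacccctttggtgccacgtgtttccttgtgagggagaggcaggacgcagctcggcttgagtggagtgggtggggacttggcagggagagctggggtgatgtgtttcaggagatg

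Between libraries the JUN regions differed little. By the call rule 0 Hox regions were lower in siHK1 (5.56% of all JUN regions were) and 1 was higher (4.0% of all). That region, chr11:96271148-96271379 just upstream of Hoxb9, a gene of the thoracic level, had 2 reads in TGF and 7 in siHK1 (log2 ratio 2.48, 0.31 to 6.002) and a peak in siHK1 only. The median Hox ratio was 0.02, against -0.04 over all regions, and became -0.08 with the deposited scaling. Summed reads were 99 and 43 in HoxA (-0.31, -0.86 to 0.22), 487 and 251 in HoxB (-0.06, -0.29 to 0.16) and 181 and 115 in HoxC (0.24, -0.11 to 0.58), all with intervals that held 0. Together the 13 regions had 767 and 409 reads (-0.015, -0.19 to 0.16). This interval leaves out a 2-fold difference of the sum between these 2 libraries, by counting error only. Of these reads, 453 and 232 lay in the run beyond the end of HoxB.

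SMAD3 and NFATC2 reads at Hox genes were few. The 8 SMAD3 regions had 25 reads in TGF and 22 in siHK1 in all. Hoxb1 had the most, 9 and 3 reads at chr11:96379912-96380134 and 4 and 3 at chr11:96413586-96413943. Hoxc10 had 5 and 1, Hoxb3 had 3 and 1, Hoxa7, a central gene, had 2 and 3, and Hoxa3 had 1 and 3. A region upstream of Hoxc13, chr15:102911845-102912055, had 0 and 5 reads, 2.35-fold higher in siHK1 when 0 is taken as 3 reads (the counting interval of the log2 ratio starts lower, at 0.37), and another had 1 and 3. By the rule 0 Hox regions were lower (4.59% of all) and 1 was higher (7.44% of all), while the deposited scaling called 0. The summed ratio was 0.31 with an interval of -0.59 to 1.20, and the median was 0.56, against 0.01 over all regions. Of the 8 regions, 6 had a peak in siHK1 only (47.7% of all did), a class whose median over all regions was 1.41.

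NFATC2 had 26 reads in TGF and 42 in siHK1 over 15 Hox regions (log2 ratio 1.39, 0.65 to 2.16). Peaks in siHK1 only, the class of most of these regions, had a median of 1.55 over all regions. The call rule gave 0 lower (2.06% of all) and 2 higher (4.79% of all), and 1 higher with the deposited scaling. In the gap between Hoxb13 and Hoxb9, chr11:96215535-96215862 had 0 and 10 reads, 5.41-fold higher against the same floor (interval from 1.86 in log2), and lay a few kb past the highest H3K9lc region without overlapping it. Upstream of Hoxc13, chr15:102843897-102844100 had 0 and 4 reads, 2.16-fold higher against that floor (interval from 0.10 in log2). Both had a peak in siHK1 only, as did 10 of the 15 (66.7%, against 54.0% of all). The other regions had 7 or fewer reads in each library, from 7 and 2 upstream of Hoxc12 and 6 and 1 at the Hoxb13 promoter to 0 and 2 at Hoxc6 and at the start of Hoxc13. Hoxb3 had 2 and 3 reads in the region called in both libraries, and 4 and 0 in another.

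The NFATC2 sums were 16 and 19 reads in HoxB (log2 ratio 0.95, -0.09 to 2.003) and 10 and 23 in HoxC (1.90, 0.77 to 3.14). Within 10 kb of a start site 4 of the 7 HoxB regions remained and the value turned to -1.21, without the regions of 0 and 10, 1 and 2, and 0 and 3 reads. The HoxC value became 1.11 over the 5 of 8 regions that remained. In HoxC 7 of the 8 regions had a peak in siHK1 only and so were listed partly through the library where they were high. The median Hox ratio was 2.28, or 1.18 with regions at 0 placed at their bound and 6 left out, against 0.41 and 0.28 over all regions.

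Overlaps between antibodies at Hox genes were few in number. Of 59 H3K9lc regions, 1 overlapped a JUN region (1.69%, against 5.92% of all H3K9lc regions), 1 a SMAD3 region (1.69% against 6.5%) and 2 an NFATC2 region (3.39% against 6.58%). As shares of the shorter factor lists the same overlaps were 7.69% of Hox JUN regions (6.07% of all), 12.5% of Hox SMAD3 regions (8.36%) and 13.3% of Hox NFATC2 regions (7.24%). The start of Hoxc10 was the place where 3 antibodies met, with H3K9lc and JUN sharing 226 bp and SMAD3 sharing 41 bp with each. Of 13 JUN regions, 3 overlapped SMAD3 (23.1%, against 18.1% of all), at Hoxc10, at Hoxa3 (229 bp) and in the Hoxb1 distal run (358 bp), and those were 3 of the 8 SMAD3 regions (37.5%, against 23.0% of all). H3K9lc and NFATC2 overlapped at the Hoxb13 promoter (124 bp) and at Hoxc13 (185 bp), and 0 of 15 NFATC2 regions overlapped JUN or SMAD3 (16.7% and 12.3% of all NFATC2 regions did). SMAD letters were in 3 of 8 Hox SMAD3 windows (37.5%, all 38.2%), and NFAT letters (GGAAA, either strand) in 8 of 15 Hox NFATC2 windows (53.3%, all 42.9%).

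The NC table addressed whether TGF-β itself was accompanied by a difference in H3K9lc. Its 46 Hox regions, at 23 genes, had 53 reads in NC and 1121 in TGF, and 22 of them (47.8%, against 45.3% of all regions) had 0 reads in NC. The peak was called in TGF only at 41 (89.1%, against 85.9% of all) and in NC only at 5 (10.9% against 12.4%). By the rule 1 region was lower in TGF (2.42% of all) and 0 were higher (0.328% of all), and the deposited scaling gave 0 and 1. The lower region, chr11:96207185-96207443 near Hoxb13, had 2 reads in each library (log2 ratio -4.32, -8.11 to -0.54). Its peak was called in NC only, so it was listed through the library where its scaled value was high. The depth of NC allowed little else to be seen: the intergenic Hoxb13 region with 202 TGF reads had 6 in NC (0.64, -0.40 to 2.21), Hoxc12 had 2 in NC and 78 in TGF, and Hoxb7 had 4 and 56. Hoxb1 had 5 and 37 reads, Hoxd3 3 and 36, and Hoxd12 1 and 63 (1.08, -0.88 to 6.98). After the called region, Hoxb6 had the lowest ratio above the median level, with 2 and 7 reads (-2.74, -4.91 to 0.79). A Hoxb13 promoter region had 0 and 32, and both intervals held 0.

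By cluster the summed reads in NC and TGF were 1 and 98 in HoxA (log2 ratio 2.29, -0.22 to 7.61), 33 and 579 in HoxB (-0.19, -0.70 to 0.36), 8 and 237 in HoxC (0.57, -0.44 to 1.79) and 11 and 207 in HoxD (-0.09, -0.96 to 0.94). Each of these intervals held 0. By axis, anterior genes had 14 and 147 reads (-0.93, -1.72 to -0.02). Of the 8 anterior regions, 7 had a peak in TGF only, a class with a median of 0.07 over all regions. All regions with a peak in both libraries had a median of -0.83, but 0 Hox regions were among them. Central genes had 13 and 242 reads (-0.10, -0.91 to 0.83) and posterior genes 26 and 732 (0.49, -0.07 to 1.12). The HoxB and HoxD signs turned to 0.64 and 0.74 when regions with a peak in both libraries were set to 0. The median Hox ratio was -0.16, or -1.59 with zero regions at their bound and 1 left out, against -0.08 and -1.52 over all regions, and it was 1.09 with the deposited scaling. This table shares its TGF library with the siHK1 table, and 35 Hox regions had the same coordinates and the same TGF reads in both. Side by side, Hoxd12 (chr2:74672834-74673275) had 1 read in NC, 33 in TGF and 8 in siHK1, and Hoxa4 (chr6:52195613-52196153) had 0, 16 and 2. Hoxa10 (chr6:52233924-52234302) had 0, 21 and 10. These 3 were picked after their values were seen, as high in the shared TGF library, and their TGF-to-NC ratios at equal totals had intervals that held 0 (Hoxd12 0.16, -1.86 to 6.07). Of the 35, 25 had a ratio of siHK1 to TGF below 0. Most Hox regions of the NC comparison (41 of 46) were listed through a peak in the shared TGF library only. Among all H3K9lc regions with a peak in TGF but not in siHK1, 33578 of 40855 had a ratio below 0. The count of 25 was therefore not read as a difference after HK1 depletion.

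Genes that work with Hox proteins were described from lists of cofactors, Polycomb and trithorax genes, related homeobox genes and cluster noncoding RNAs. The cofactors (Pbx, Meis and Pknox genes, whose products bind DNA together with Hox proteins) had regions at 6 of 9 genes for H3K9lc, with 0 of 21 regions lower in siHK1 and 1 higher (3.33% and 3.47% of all H3K9lc regions were called). The higher region was assigned to Meis1 but lay 175826 bp from its start (3 and 9 reads). For JUN, 8 of 9 had regions (65.2% of coding genes did), 92 in all, of which 8 were lower (8.7%, against 5.56% of all JUN regions) and 1 higher (1.09% against 4.0%), including regions at Meis1 (42 and 10 reads) and Pknox2 (15 and 0 reads). Their SMAD3 regions gave 1 lower and 4 higher of 42 (4.59% and 7.44% of all), NFATC2 0 and 3 of 52 (2.06% and 4.79% of all), and the NC comparison 0 and 0 of 19 (2.42% and 0.328% of all). The counts of the lists below stand against these same shares of all regions, and lists of this size hold few called regions. Polycomb genes, which encode Hox repressors, had 1 of 25 H3K9lc regions lower, at Ezh2 (63 and 17 reads), and 0 higher, JUN 3 lower and 1 higher of 35, SMAD3 2 and 1 of 25, NFATC2 0 and 1 of 33, and the NC comparison 1 and 0 of 25. In JUN, Suz12 had 24 and 1 reads. The list's 8.57% lower and 2.86% higher stand beside 5.56% and 4.0% of all JUN regions.

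Trithorax and demethylase genes had 0 lower and 0 higher of 14 H3K9lc regions, 1 and 1 of 23 for JUN, both at Men1 (44 and 9 reads, and 4 and 10), 0 and 5 of 27 for SMAD3 (18.5% higher, against 7.44% of all; the 5 were promoter regions, of which 1633 of 11098 were higher in the whole table), 0 and 4 of 24 for NFATC2 (16.7% higher, against 4.79% of all) and 0 and 0 of 12 in the NC table. Kdm6b, an H3K27 demethylase gene, had 9 and 21 SMAD3 reads. Related homeobox genes had 1 lower of 14 H3K9lc regions, at Evx1 beside HoxA (12 and 0 reads), and 0 higher, JUN 0 and 1 of 3 (4.0% of all were higher), SMAD3 0 and 0 of 6, NFATC2 0 and 1 of 7 (4.79% of all were higher), and the NC comparison 0 and 0 of 12. Noncoding RNA genes of the clusters had 10 H3K9lc regions, with 1 lower at Hoxa11os (20 and 3 reads) and 1 higher at Hoxaas3 (7 and 12 reads). Their JUN regions were the 3 at Hotairm1 (114 and 63 reads in all, 0 called), SMAD3 had 0 and 0 of 4, NFATC2 0 and 1 of 2 and the NC comparison 0 and 0 of 6.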

How the data were processed

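CUT&Tag region tables for H3K9lc, JUN, SMAD3 and NFATC2 were used (9 of 10 libraries; the library titled TGF was left out, since its labels give no antibody). The authors deposited, for each region, read counts in each library, a normalized log2 value per library and peak marks of 0 or 1 (other marks). Per the file headers the tables also hold the authors' log2 ratio, its error and statistic, p-values and calls, which were not used. The study's methods name Bowtie2, MACS2 and GRCm39, while the submitters' processing notes name BWA 0.7.12 and mm10. All 48676 transcripts of the tables found in GENCODE vM21 had GRCm38 coordinates and 0 regions ran past a chromosome end, so positions are GRCm38, counted from 1.

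Counts were brought to equal totals per table, and log2 ratios computed with a pseudocount of 0.5 reads. Calls needed 2-fold and an exact 95% binomial interval without equality. PCR copies are not separate molecules, so intervals cover no more than counting error. A library at 0 was taken as 3 reads for a bound. The deposited log2 values were a straight line in log2(count + 0.5) of each library, with slopes of 0.861 to 1.0. The totals count reads in listed regions, not whole libraries. Members, lists and rules were chosen with earlier results of these data known. Named were, per table, the 3 Hox genes of highest level, called regions, the 2 largest changes each way above the median level, and the highest gene of each cluster. Regions beside the call limit and overlapping regions were chosen after their values were seen. Alternatives were the deposited scaling, peaks in both libraries set to 0, 2-fold alone, the interval alone, a pseudocount of 1, 10 kb from a start, peaks in both libraries only, levels above the median, sums per gene, and chromosomes 1 to 19 and X. Scripts were tested on simulated counts. Some items are not reported here. Python 3.11.15, numpy 2.4.6, pandas 2.3.3, scipy 1.17.1, pysam 0.24.0 and matplotlib 3.10.9 were used.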

Additional observations from a re-analysis of the deposited data

How the results depend on the processing

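Of 68 named gene ratios, 9 changed sign with the deposited scaling and 4 when summed over all regions of the gene. With the deposited scaling the calls were 6 lower and 2 higher Hox regions for H3K9lc (5.24% and 1.99% of all regions), 0 higher for SMAD3 (3.86%), 1 higher for NFATC2 (2.46%), and 0 lower and 1 higher in the NC table (0.604% and 4.71%). With regions that have a peak in both libraries set to 0 they were 4 lower for H3K9lc (4.39% of all), and 0 lower and 1 higher in the NC table (1.2% and 4.43%). With 2-fold alone they were 10 lower and 8 higher for H3K9lc (13.7% and 13% of all), 1 and 3 for SMAD3 (31.7% and 32.8%), 3 and 11 for NFATC2 (25.6% and 38.4%), and 12 and 6 in the NC table (24.9% and 14.7%). Over regions with a peak in both libraries there were 0 calls among 4 Hox regions for H3K9lc, 7 for JUN and 1 for NFATC2. Such calls made up 0.0361% and 0.15%, 0.564% and 0.871%, and 0.0305% and 0.0422% of all regions (lower and higher). The class itself made up 20.8%, 49.7% and 3.61% of all regions. SMAD3 and the NC table have 0 such Hox regions and so could give none. Within 10 kb of a start the NFATC2 table had 0 higher and the NC comparison 0 lower, the NFATC2 HoxB sum was -1.21 and the HoxC sum 1.11 (log2), and the Hox share of JUN regions was 0.00822%, since 6 of 13 remain. The NC median of -0.16 became 1.09 with the deposited scaling, 0.67 with peaks in both set to 0 and -0.94 above the median level, and the NC HoxB sum 0.64 with peaks in both set to 0. The Hoxb13 NFATC2 ratio summed over its regions was 1.55. Without the HoxB region of highest level, an alternative chosen after seeing the data, the HoxB sum was 0.18 for H3K9lc and -0.0022 for JUN. Where no construction of the alternative shows it, the cause was not tested. No paired analysis was possible because there is 1 library for each antibody and condition, and no replicate could be left out. Depth limits the Hox values in the H3K9lc, SMAD3, NFATC2 and NC tables, with a median of 7 siHK1 reads for H3K9lc and fewer in the others.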
